A study of Mus musculus with 9 samples.

Results

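DNA repair genes were followed through normal colonic mucosa of mice given a colon carcinogen. The set holds 40 genes chosen by name for their place in a repair pathway: 10 of homologous recombination, 4 of end joining, 3 of the Fanconi anemia pathway, 4 of mismatch repair, 11 of base excision repair, 2 of direct reversal and 6 of nucleotide excision repair. All 40 had a probe on the array, out of 17305 gene symbols named there. For each gene the brightest probe was used, and its value is the log2 processed signal minus the array's 75th percentile, so that 0 is the level of a bright gene of that array. Levels of different genes are not comparable on this scale, because probes differ in how they bind.

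The series set out to profile gene expression under calcium-mediated prevention of colorectal cancer in mice. Mice of the outbred ICR stock gave 9 arrays of total RNA in 3 groups of 3. In hCA-Tumor the mice ate a 3% calcium diet and had tumors, in hCA-Notumor they ate the same diet and had none, and in DMH they ate a 1.24% calcium diet. Every group, DMH included, had received weekly subcutaneous 1,2-dimethylhydrazine (20 mg/kg) over 20 weeks, so no group is free of the carcinogen. The tumor status of the DMH mice is labelled only as control. The tissue is labelled as normal mucosa in each group, with no age or sex stated. It is not stated either if each array stands for its own mouse. The p-values therefore cover the array-to-array spread within groups, part or all of which may be technical.

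The 14 epithelial markers looked up (Epcam, Cdh1, keratins and others) were well above background on all 9 arrays. Markers of other layers differed between groups. The summed linear signal of 10 smooth muscle genes ran from 754 to 990 in hCA-Tumor, from 543 to 681 in hCA-Notumor and from 290 to 507 in DMH, in units of each array's 75th percentile. That of 7 adipocyte genes ran from 8.80 to 15.5 in hCA-Tumor, from 4.97 to 8.62 in hCA-Notumor and from 40.1 to 44.4 in DMH. Slide was a batch as well: slide 1 held hCA-Notumor replicates 1 to 3 with DMH replicate 1, slide 2 held hCA-Tumor replicates 1 and 2 with DMH replicates 2 and 3, and slide 3 held hCA-Tumor replicate 3 alone. Slide accounted for 92.2% and group for 65% of the first principal component (50.1% of the variance). Of the second (21.3%), group accounted for 93.0% and slide for 45.8%. The shares overlap because slide and group are partly the same split of the arrays. hCA-Tumor and hCA-Notumor never shared a slide, and values with the slide as a block compare them only through the DMH arrays of their slides. Values within slide 1 set 3 hCA-Notumor arrays against 1 DMH array, which is assumed to vary like the others, and so give no check of their own on the DMH spread.

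Dimethylhydrazine is turned into a methylating agent that leaves methylated bases in the DNA of the colon, and repair pathways meet such lesions in turn. Direct reversal takes the methyl group off the base. In base excision repair a glycosylase removes the damaged base, an endonuclease cuts the strand, and a polymerase and ligase fill the gap. Mismatch repair reads bases that pair wrongly after replication, nucleotide excision repair cuts out bulky lesions together with their neighbours, and double-strand breaks are rejoined by homologous recombination, which copies an intact sister, or by end joining, which seals the ends. The Fanconi pathway unhooks strands that are linked to each other. Recombination, Fanconi and mismatch genes are mostly induced as cells enter DNA synthesis, a program run by the E2F transcription factors.

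Promoters were set out for 4 members that were lower in the mean of both high calcium groups than in DMH. Those of Brca1, Fanci and Blm show matches to an E2F core motif and that of Parp1, a base excision gene, shows none. These genes were chosen after their values were seen. The windows are RefSeq promoter sequences of build GRCm38.p6, from 250 bases before to 50 bases after the gene's start, read on the gene's strand. Brca1 lies at chr11:101551906-101552205 on the minus strand, Fanci at chr7:79392088-79392387 on the plus strand, Blm at chr7:80534949-80535248 on the minus strand and Parp1 at chr1:180568641-180568940 on the plus strand. Capitals mark a match on either strand to the E2F core, spelled TTCCCGC in one form, TTGGCGC in another, and also searched as TTCGCGC and in the form TTGCCGC.
Brca1: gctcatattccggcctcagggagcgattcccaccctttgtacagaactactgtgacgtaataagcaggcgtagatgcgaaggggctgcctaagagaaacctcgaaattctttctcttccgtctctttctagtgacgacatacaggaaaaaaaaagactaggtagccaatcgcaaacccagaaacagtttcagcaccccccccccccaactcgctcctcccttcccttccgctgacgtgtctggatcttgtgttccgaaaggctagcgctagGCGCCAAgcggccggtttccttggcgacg
Fanci: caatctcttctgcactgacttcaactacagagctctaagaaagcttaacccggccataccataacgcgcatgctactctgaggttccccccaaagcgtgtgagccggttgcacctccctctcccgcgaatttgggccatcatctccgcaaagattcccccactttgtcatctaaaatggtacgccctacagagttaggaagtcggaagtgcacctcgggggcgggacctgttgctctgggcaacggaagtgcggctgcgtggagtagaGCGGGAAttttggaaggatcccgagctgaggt
Blm: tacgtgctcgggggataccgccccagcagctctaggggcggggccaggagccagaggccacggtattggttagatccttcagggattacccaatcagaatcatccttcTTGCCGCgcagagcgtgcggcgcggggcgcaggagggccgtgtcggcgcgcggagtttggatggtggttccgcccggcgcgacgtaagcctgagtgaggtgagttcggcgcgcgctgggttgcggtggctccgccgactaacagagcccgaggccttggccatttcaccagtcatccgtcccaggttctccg
Parp1: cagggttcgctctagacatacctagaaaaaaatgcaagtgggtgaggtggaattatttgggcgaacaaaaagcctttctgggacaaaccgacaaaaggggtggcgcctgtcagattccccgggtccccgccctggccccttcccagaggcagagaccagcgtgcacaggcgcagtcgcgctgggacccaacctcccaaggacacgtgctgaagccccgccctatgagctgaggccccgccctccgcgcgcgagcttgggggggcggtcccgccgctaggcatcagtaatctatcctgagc
Of the 40 members, 32 had a window in that table, and 16 of these held an E2F core (50%), against 17.1% of 11346 tested genes and 10.9% of all 27025 genes of the table. By pathway the core stood in 6 of 8 recombination, 3 of 3 mismatch, 3 of 4 nucleotide excision, 2 of 3 end joining, 1 of 2 Fanconi, 1 of 10 base excision and 0 of 2 direct reversal windows. Among members lower in the mean of both high calcium groups it stood in 6 of 9, and among the tested members that were not lower in 8 of 21. The lower members Fancd2, Exo1 and Polb had no window. These shares were not tested, and the base content of the windows was not matched. The CHR element TTTGAA, searched in the same way, stood in 2 of the 32, against 15.7% of tested genes. A match describes the letters of a window and does not show that a factor binds there.

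Of the 40 genes, 38 passed the background filter and were tested among 21084 features, and all 38 were well above background on all 9 arrays. Bard1, the partner of Brca1, was not well above background on any array. Rad51c, a recombination gene, was so on 0 hCA-Tumor, 1 hCA-Notumor and 1 DMH arrays. Neither was tested.

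The high calcium groups together were first set against DMH, the comparison the series was designed for. As the mean of both groups, 2 of 38 repair genes were higher and 12 lower than in DMH at an adjusted p under 0.05, while 31.4% of all features passed in this comparison (18.4% higher and 13% lower). The share of members that passed was 36.8%, so the members passed about as often as other features, with the lower direction in front. Their median difference was -0.10 on the log2 scale against 0.08 for all features, and 33 of 38 lay below the median of all features. The 12 were Brca1 and Blm of recombination, Xrcc6 and Lig4 of end joining, Fancd2 and Fanci of the Fanconi pathway, Exo1 of mismatch repair, and Neil1, Tdg, Apex1, Polb and Parp1 of base excision repair. The 2 higher ones, Ercc2 and Ddb2, both belong to nucleotide excision repair. In bulk tissue fewer cells of a type and less RNA per cell cannot be told apart.

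By pathway the medians of this comparison were -0.43 for the 3 Fanconi genes, -0.23 for the 11 base excision genes, -0.18 for the 4 end joining genes, -0.12 for the 8 recombination genes, -0.07 for the 4 mismatch genes, 0.05 for the 2 genes of direct reversal and 0.05 for the 6 nucleotide excision genes. Recombination and end joining together, the 12 genes of double-strand break repair, had a median of -0.12 with 4 lower and 0 higher. Base excision repair had 5 of 11 lower, mismatch repair 1 of 4 and nucleotide excision repair 0 of 6. Of all features 13% were lower and 18.4% higher. In sets this small 1 of 4 and 0 of 6 are not set apart from that share. The medians of nucleotide excision repair and direct reversal turned to -0.11 and -0.11 on the authors' whole-series table of log2 values, where the median of all features was -0.11 in place of 0.08. The other 5 pathway medians were below 0 under each alternative run, though that of recombination came to -0.0015 with normexp background correction. Of the 14 calls 6 were kept on the whole-series table, those of Brca1, Lig4, Fancd2, Fanci, Neil1 and Tdg. With normexp 9 were kept, and those of Blm, Xrcc6, Fancd2, Polb and Ercc2 ended. The call of Ercc2 also ended with quantile normalization (0.18, adjusted p = 0.452).

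Each high calcium group was also set against DMH by itself. These comparisons share the DMH arrays and are given side by side. In hCA-Tumor 4 of 38 members were higher and 12 lower than in DMH, where 37.2% of all features passed (22.1% higher and 15.1% lower). In hCA-Notumor 1 was higher and 12 lower, where 35.6% of all features passed (18.5% higher and 17.2% lower). Medians were -0.07 in hCA-Tumor and -0.11 in hCA-Notumor, against 0.09 and 0.08 for all features. The arrays did not overlap with those of DMH in 23 members for hCA-Tumor and in 20 for hCA-Notumor, against 49.5% and 58% of all features. For the mean of both groups, 10 members had every high calcium array on one side of every DMH array, against 20% of all features. On the whole-series table the calls kept were those of Brca1, Xrcc6, Fancd2 and Parp1 in hCA-Tumor, and those of Brca1, Brca2, Lig4, Fanca, Fanci, Ogg1 and Tdg in hCA-Notumor. With normexp those of Rad50, Nbn, Atr, Fancd2, Fanci and Polb ended in hCA-Tumor, and those of Brca2, Neil1, Apex1, Polb and Ercc2 in hCA-Notumor.

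**Figure D1:**
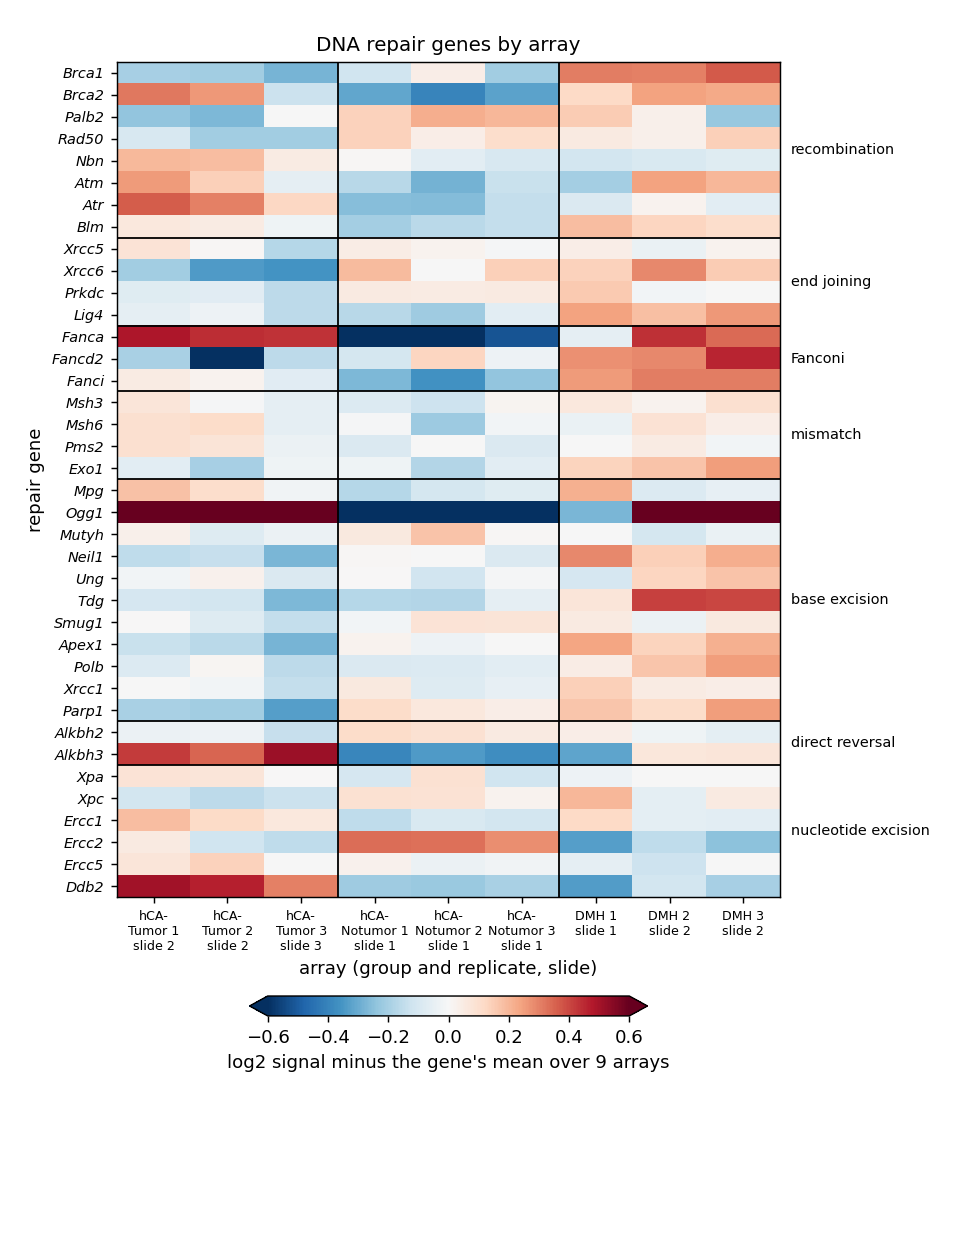
Log2 signal of the 38 tested repair genes (rows, by pathway) on each of the 9 arrays (columns, by group with the slide below), as the difference from the gene's mean over all arrays, with colours capped at 0.6 in either direction. Brca1, Lig4, Fanci and Apex1 are highest on the 3 DMH arrays, and Ogg1 and Fanca on DMH 1 of slide 1 lie apart from DMH 2 and DMH 3 of slide 2.

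High calcium mice with and without tumors were then compared with each other, which also tests whether their differences from DMH differ. Of 38 members 10 were higher and 8 lower in hCA-Tumor than in hCA-Notumor, a share of 47.4%, and 47.7% of all features passed in this comparison (27.9% higher and 19.8% lower). The groups did not overlap in 23 of 38 members and in 59.1% of the 21028 features with a value on every array of both groups. The median of the members was 0.01 against 0.02 for all features. With the slide as a block 12 members passed, 10 of them among the 18, while 31.8% of all features passed. The calls of Atr, Fanca, Ogg1, Alkbh3 and Ddb2 were kept with normexp, on the whole-series table and with the block alike.

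In homologous recombination the genes did not move together. Brca1, which guides the resected end toward strand exchange, was lower in both high calcium groups than in DMH. Its log2 values were -0.89, -0.90 and -0.97 in hCA-Tumor, -0.82, -0.66 and -0.90 in hCA-Notumor, and -0.39, -0.40 and -0.33 in DMH. Every high calcium array lay below every DMH array, while the high calcium groups overlapped. The difference of their mean from DMH was -0.49 ± 0.06 (SE), a 1.40-fold lower signal (adjusted p = 0.00101), or -0.47 with the slide as a block. Against DMH hCA-Tumor differed by -0.56 (adjusted p = 0.000953) and hCA-Notumor by -0.42 (adjusted p = 0.00303), and within slides by -0.54 (adjusted p = 0.01) and -0.41 (adjusted p = 0.097). Between hCA-Tumor and hCA-Notumor it differed by -0.13 ± 0.07 (adjusted p = 0.155).

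Blm, the helicase that dissolves crossed strands, had log2 values of -0.55, -0.56 and -0.64 in hCA-Tumor, -0.82, -0.78 and -0.76 in hCA-Notumor, and -0.43, -0.48 and -0.51 in DMH. The 3 groups did not overlap, with hCA-Notumor lowest and DMH highest. It was lower in hCA-Notumor than in DMH by -0.31 ± 0.05 (adjusted p = 0.00234) and within slide 1, against its 1 DMH array, by -0.35 (adjusted p = 0.0454), and the mean of both groups was lower as well (-0.21, adjusted p = 0.00761). hCA-Tumor differed from DMH by -0.11 (adjusted p = 0.112) and was higher than hCA-Notumor by 0.20 (adjusted p = 0.0106).

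Brca2, a mediator of recombination at single-stranded DNA, was lower in hCA-Notumor than in either other group. Its log2 values were -0.73, -0.78 and -1.17 in hCA-Tumor, -1.35, -1.44 and -1.36 in hCA-Notumor, and -0.92, -0.80 and -0.81 in DMH. The hCA-Notumor arrays lay below all others. The difference of hCA-Notumor from DMH was -0.54 ± 0.11 (adjusted p = 0.00972) and -0.46 within slide 1 (adjusted p = 0.0311), and hCA-Tumor was 1.41-fold higher than hCA-Notumor (0.49 ± 0.11, adjusted p = 0.00994). Against DMH hCA-Tumor differed by -0.05 ± 0.11 (adjusted p = 0.788). With normexp the call of hCA-Notumor against DMH ended (-0.18, adjusted p = 0.431), and that between the high calcium groups ended with normexp (0.34, adjusted p = 0.123) and on the whole-series table (0.54, adjusted p = 0.0756).

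Atr, the kinase that signals single-stranded DNA at stalled forks, had log2 values of 1.43, 1.37 and 1.19 in hCA-Tumor, 0.81, 0.80 and 0.92 in hCA-Notumor, and 0.98, 1.08 and 1.00 in DMH. The hCA-Tumor arrays were highest. It was higher in hCA-Tumor than in hCA-Notumor by 0.48 ± 0.07 (adjusted p = 0.0015) and than in DMH by 0.31 ± 0.07 (adjusted p = 0.0144), and 0.36 within slide 2 (adjusted p = 0.0211). The call against DMH ended without hCA-Tumor replicate 2 (0.29, adjusted p = 0.0513), with normexp (0.25, adjusted p = 0.0666), on the whole-series table (0.17, adjusted p = 0.611), with the mean of the Atr probes (0.30, adjusted p = 0.213) and with a dimmer probe (0.15, adjusted p = 0.0758). Between hCA-Tumor and hCA-Notumor that dimmer probe differed by 0.28, and a further one was well above background on 3 hCA-Tumor, 2 hCA-Notumor and 2 DMH arrays.

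Palb2, which joins Brca1 to Brca2, had log2 values of -3.29, -3.32 and -3.05 in hCA-Tumor, -2.92, -2.84 and -2.85 in hCA-Notumor, and -2.90, -3.02 and -3.28 in DMH. It was lower in hCA-Tumor than in hCA-Notumor (-0.35 ± 0.11, adjusted p = 0.0329), and DMH spanned both. That call ended with the slide as a block (-0.19, adjusted p = 0.339) and on leaving out any of 5 single arrays (-0.38 to -0.30, adjusted p from 0.0645 to 0.104), namely hCA-Tumor replicate 1 or 2 or any hCA-Notumor replicate. The remaining recombination genes are the break sensors. Rad50, of the complex that tethers broken ends, was lower in hCA-Tumor than in hCA-Notumor (-0.27, adjusted p = 0.00663, and -0.28, adjusted p = 0.096, with the block) and than in DMH (-0.25, adjusted p = 0.0122). Nbn, of the same complex, was the recombination gene whose largest difference was smallest. It was higher in hCA-Tumor than in hCA-Notumor by 0.19 (adjusted p = 0.0219, and 0.21, adjusted p = 0.0868, with the block) and than in DMH by 0.24 (adjusted p = 0.0131). The Nbn call between the high calcium groups ended on leaving out any of 4 arrays, hCA-Tumor replicate 1 or 2 or hCA-Notumor replicate 2 or 3 (0.17 to 0.19, adjusted p from 0.0602 to 0.0768), and the call against DMH without hCA-Tumor replicate 2 (0.21, adjusted p = 0.0503). Atm, the kinase that signals breaks, did not pass in any comparison, at -0.12 ± 0.12 for the mean of both groups (adjusted p = 0.468).

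In end joining the ligase and a Ku subunit were lower and the other members did not pass. Lig4, the ligase that seals the ends, had log2 values of -0.29, -0.26 and -0.39 in hCA-Tumor, -0.40, -0.44 and -0.30 in hCA-Notumor, and 0.01, -0.05 and 0.03 in DMH. All 6 high calcium arrays lay below all DMH arrays, and the high calcium groups overlapped. The mean of both groups differed by -0.34 ± 0.05 (adjusted p = 0.00248), hCA-Tumor by -0.31 (adjusted p = 0.00603) and hCA-Notumor by -0.38 (adjusted p = 0.00271), with -0.26 within slide 2 (adjusted p = 0.032) and -0.39 within slide 1 (adjusted p = 0.0597). A dimmer Lig4 probe differed by -0.17 for the mean of both groups, but by 0.43 for hCA-Notumor and -0.78 for hCA-Tumor.

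Xrcc6, the Ku70 subunit that caps a broken end, had log2 values of -0.94, -1.07 and -1.09 in hCA-Tumor, -0.54, -0.73 and -0.59 in hCA-Notumor, and -0.59, -0.44 and -0.58 in DMH. The hCA-Tumor arrays were lowest, and hCA-Notumor overlapped DMH. It was lower in hCA-Tumor than in DMH by -0.49 ± 0.07 (1.41-fold, adjusted p = 0.00211, and -0.49 within slide 2, adjusted p = 0.0221) and than in hCA-Notumor by -0.41 ± 0.07 (adjusted p = 0.00313). hCA-Notumor differed from DMH by -0.08 (adjusted p = 0.418). The mean of both groups was at -0.29 (adjusted p = 0.0133), a call that ended without DMH replicate 2 (-0.24, adjusted p = 0.0574). Xrcc5, the other Ku subunit, was the member that moved least, at -0.03, 0.01 and -0.05 for hCA-Tumor against DMH, hCA-Notumor against DMH and hCA-Tumor against hCA-Notumor, each with an SE of 0.07. Prkdc, the kinase that Ku recruits, did not pass either, at -0.07 ± 0.05 for the mean of both groups (adjusted p = 0.333).

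All 3 Fanconi genes were measured. Fanci, a member of the pair that the pathway marks with ubiquitin at a crosslink, had log2 values of -0.92, -0.94 and -1.03 in hCA-Tumor, -1.23, -1.33 and -1.20 in hCA-Notumor, and -0.71, -0.66 and -0.65 in DMH. The 3 groups did not overlap, in the same order as for Blm. It differed by -0.29 ± 0.05 in hCA-Tumor (adjusted p = 0.00516) and by -0.58 ± 0.05 in hCA-Notumor (adjusted p = 0.000255) against DMH, and within slides by -0.27 (adjusted p = 0.0203) and, against 1 DMH array, -0.54 (adjusted p = 0.0282). The difference between the high calcium groups was 0.29 (adjusted p = 0.00378), or 0.27 with the slide as a block (adjusted p = 0.0636).

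Fancd2, the partner of Fanci, had log2 values of -3.90, -4.37 and -3.86 in hCA-Tumor, -3.81, -3.58 and -3.73 in hCA-Notumor, and -3.43, -3.42 and -3.25 in DMH. The groups did not overlap, with hCA-Tumor lowest. It was 1.60-fold lower in hCA-Tumor than in DMH (-0.68 ± 0.14, adjusted p = 0.00829, and -0.80 within slide 2, adjusted p = 0.0444) and the mean of both groups was lower too (-0.51, adjusted p = 0.0173), though the call on the mean ended without DMH replicate 3 (-0.45, adjusted p = 0.0774). hCA-Notumor differed from DMH by -0.34 (adjusted p = 0.099). Between hCA-Tumor and hCA-Notumor Fancd2 differed by -0.34 (adjusted p = 0.0872), or -0.53 with the slide as a block (adjusted p = 0.166). The probe is dim, and with normexp background correction its differences were -0.20 for hCA-Tumor and -0.18 for the mean, with neither past the threshold.

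Fanca, of the core complex that places the ubiquitin, had log2 values of 0.00, -0.05 and -0.05 in hCA-Tumor, -1.26, -1.29 and -1.0021 in hCA-Notumor, and -0.54, -0.05 and -0.15 in DMH. The low DMH value is that of replicate 1, on the slide of the hCA-Notumor arrays. It was 2.22-fold higher in hCA-Tumor than in hCA-Notumor (1.15 ± 0.13, adjusted p = 0.000476), or 0.72 with the slide as a block (adjusted p = 0.0241). hCA-Notumor differed from DMH by -0.94 (adjusted p = 0.00173), and within slide 1 by -0.64 (adjusted p = 0.0544). hCA-Tumor differed from DMH by 0.21 ± 0.13 (adjusted p = 0.266).

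**Figure D2:**
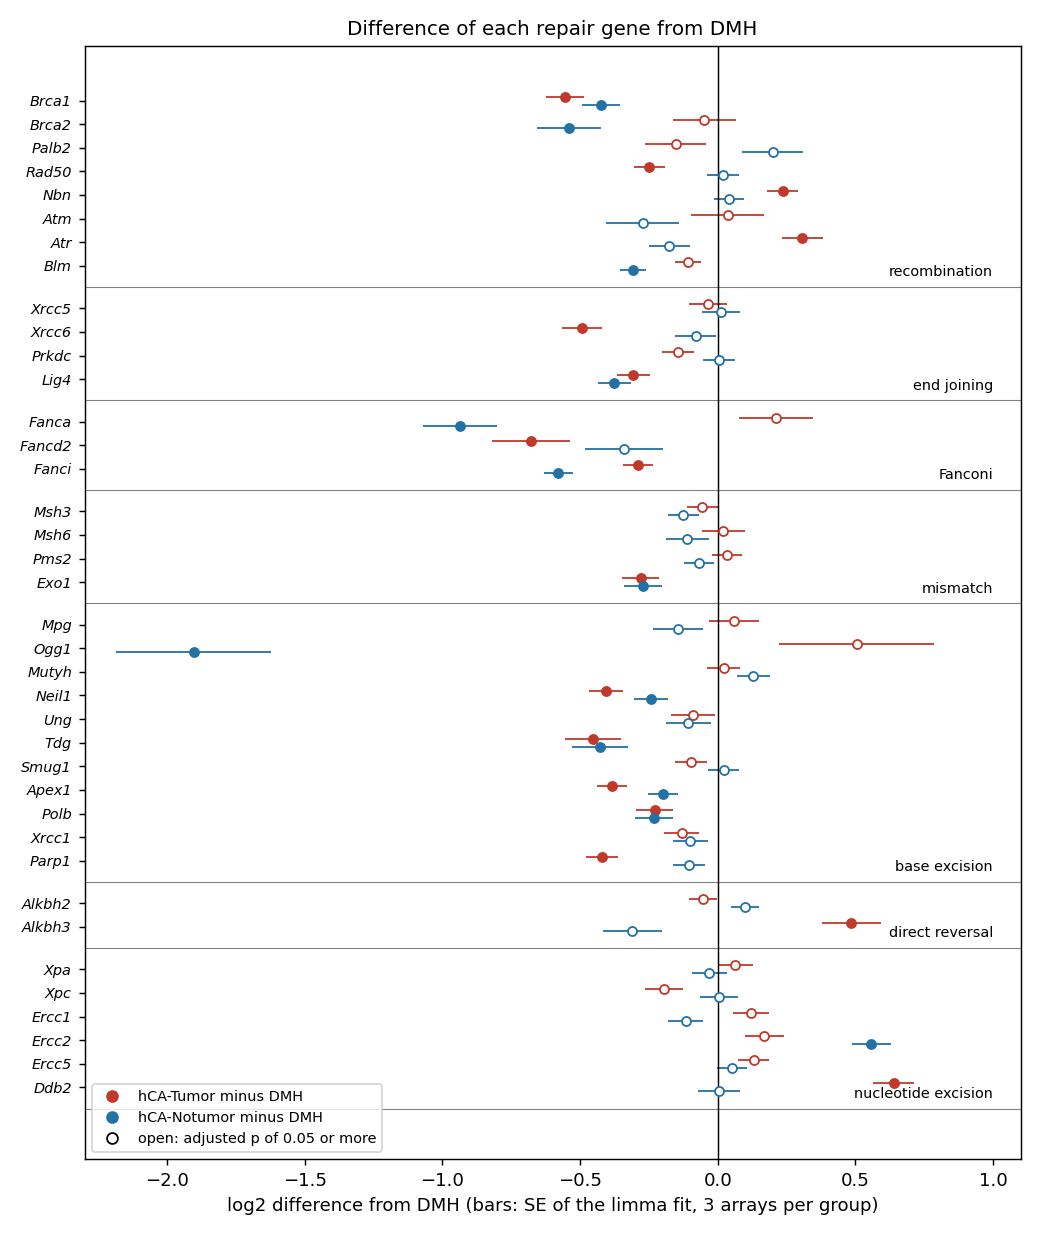
Log2 difference of each tested repair gene from DMH (points, with the SE of the limma fit over 3 arrays per group) for hCA-Tumor in red and hCA-Notumor in blue, filled where the adjusted p is under 0.05. Most filled points lie left of 0, those right of it being Nbn, Atr, Alkbh3 and Ddb2 for hCA-Tumor and Ercc2 for hCA-Notumor.

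In mismatch repair the nuclease was lower and the mismatch readers did not pass. Exo1, which digests the strand that carries the error and also resects breaks, had log2 values of -0.21, -0.35 and -0.17 in hCA-Tumor, -0.17, -0.32 and -0.21 in hCA-Notumor, and -0.02, 0.02 and 0.10 in DMH. All high calcium arrays lay below all DMH arrays. Its difference was -0.28 ± 0.06 for the mean of both groups (1.21-fold lower, adjusted p = 0.0107), -0.28 for hCA-Tumor (adjusted p = 0.0152) and -0.27 for hCA-Notumor (adjusted p = 0.0185), against -0.34 within slide 2 (adjusted p = 0.0347) and -0.22 within slide 1 (adjusted p = 0.179). Without DMH replicate 3 the calls ended (-0.24, -0.25 and -0.24, adjusted p = 0.0532, 0.0558 and 0.0679), and that of hCA-Notumor also ended without its replicate 2 (adjusted p = 0.0596) or DMH replicate 2 (adjusted p = 0.052). Msh6 and Msh3, which read mismatches, and Pms2, which nicks the strand, passed in 0 of 4 comparisons each. Pms2 was the one whose largest difference was smallest, at -0.02 ± 0.05 for the mean of both groups (adjusted p = 0.797) and 0.10 ± 0.05 between hCA-Tumor and hCA-Notumor (adjusted p = 0.157).

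In base excision repair, the pathway with the most members, 5 of 11 genes were lower in the mean of both groups. That stands against 2 of 3 Fanconi genes, 2 of 4 end joining genes and 13% of all features. Among the glycosylases, which start the pathway, Neil1 and Tdg were lower in both high calcium groups. Neil1, which removes oxidised pyrimidines, had log2 values of -1.27, -1.25 and -1.39 in hCA-Tumor, -1.11, -1.12 and -1.20 in hCA-Notumor, and -0.83, -0.97 and -0.90 in DMH. The groups did not overlap, with hCA-Tumor lowest. It differed from DMH by -0.40 ± 0.06 in hCA-Tumor (adjusted p = 0.0022) and -0.24 ± 0.06 in hCA-Notumor (adjusted p = 0.0193), and within slides by -0.32 (adjusted p = 0.02) and -0.32 (adjusted p = 0.0686). The call of hCA-Notumor ended without its replicate 3 (-0.21, adjusted p = 0.0693) and without DMH replicate 3 (-0.24, adjusted p = 0.0591). Between hCA-Tumor and hCA-Notumor Neil1 differed by -0.16 (adjusted p = 0.0655), or -0.01 with the slide as a block (adjusted p = 0.945).

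Tdg, which removes thymine from mispairs with guanine, had log2 values of -0.50, -0.51 and -0.67 in hCA-Tumor, -0.57, -0.58 and -0.45 in hCA-Notumor, and -0.33, 0.01 and 0.00 in DMH. DMH replicate 1 was the lowest of its group and still above the high calcium arrays. The mean of both groups differed by -0.44 ± 0.09 (1.36-fold lower, adjusted p = 0.00842), or -0.36 with the slide as a block (adjusted p = 0.00244). hCA-Tumor differed by -0.45 (adjusted p = 0.0115, and -0.51 within slide 2, adjusted p = 0.0092) and hCA-Notumor by -0.43 (adjusted p = 0.0154, and -0.21 within slide 1, adjusted p = 0.179). The call of hCA-Notumor also ended on leaving out hCA-Notumor replicate 1 or 2 or DMH replicate 2 or 3 (-0.41 to -0.37, adjusted p from 0.051 to 0.0572). A dimmer Tdg probe gave 0.19 for hCA-Tumor and -0.87 for hCA-Notumor. With that probe the call of hCA-Tumor ended (adjusted p = 0.52), and so did that of the mean of both groups (-0.34). Both calls also ended with the mean of the Tdg probes.

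Ogg1, the glycosylase for oxidised guanine, had the largest difference of all 38 genes. Its log2 values were -0.52, -0.55 and -0.43 in hCA-Tumor, -3.01, -2.76 and -2.96 in hCA-Notumor, and -1.75, -0.65 and -0.62 in DMH. The hCA-Notumor arrays were far below the rest, and the DMH array on their slide, replicate 1, lay below DMH replicates 2 and 3, so the DMH group spanned more than 1 on the log2 scale. Ogg1 was 5.31-fold higher in hCA-Tumor than in hCA-Notumor (2.41 ± 0.28, adjusted p = 0.000482), or 1.26 with the slide as a block (adjusted p = 0.00388). hCA-Notumor was 3.74-fold lower than DMH (-1.90 ± 0.28, adjusted p = 0.00201), and -1.16 within slide 1 (adjusted p = 0.0145), where the single DMH array is assumed to vary like the others. hCA-Tumor differed from DMH by 0.50 ± 0.28 (adjusted p = 0.207) and within slide 2 by 0.10 (adjusted p = 0.168). A dimmer Ogg1 probe was well above background on 3 hCA-Tumor, 1 hCA-Notumor and 3 DMH arrays, too few for an exact difference. The part of the slide in these differences was not tested beyond these values.

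Of the later steps Apex1, Polb and Parp1 were lower in the mean of both groups. Apex1, the endonuclease that cuts at the empty site, had log2 values of 2.46, 2.43 and 2.31 in hCA-Tumor, 2.61, 2.56 and 2.59 in hCA-Notumor, and 2.83, 2.73 and 2.81 in DMH. The groups did not overlap, with hCA-Tumor lowest. It differed from DMH by -0.38 ± 0.05 in hCA-Tumor (1.31-fold lower, adjusted p = 0.00168, and -0.32 within slide 2, adjusted p = 0.0217) and by -0.20 in hCA-Notumor (adjusted p = 0.0272, and -0.24 within slide 1, adjusted p = 0.0916). The high calcium groups differed by -0.19 (adjusted p = 0.0259, and -0.08, adjusted p = 0.454, with the slide as a block). The call of hCA-Notumor against DMH ended on leaving out any of its own replicates or DMH replicate 1 or 3 (-0.21 to -0.18, adjusted p from 0.0534 to 0.0857), and that between the high calcium groups without hCA-Tumor replicate 2 or 3 or hCA-Notumor replicate 1 or 3 (-0.20 to -0.14, adjusted p from 0.0514 to 0.0799).

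Parp1, the sensor of strand breaks, had log2 values of 1.05, 1.04 and 0.92 in hCA-Tumor, 1.36, 1.31 and 1.29 in hCA-Notumor, and 1.41, 1.36 and 1.50 in DMH. The hCA-Tumor arrays lay below all others, and hCA-Notumor overlapped DMH. It was 1.34-fold lower in hCA-Tumor than in DMH (-0.42 ± 0.06, adjusted p = 0.00156, and -0.38 within slide 2, adjusted p = 0.025) and lower than in hCA-Notumor (-0.32 ± 0.06, adjusted p = 0.00377, and -0.29, adjusted p = 0.0672, with the slide as a block). hCA-Notumor differed from DMH by -0.11 (adjusted p = 0.2). Polb, the polymerase that fills the gap, was lower in the mean of both groups by -0.23 ± 0.06 (adjusted p = 0.0219), in hCA-Tumor (-0.23, adjusted p = 0.0333) and in hCA-Notumor (-0.23, adjusted p = 0.0335). The Polb call of the mean ended without DMH replicate 2 (-0.22, adjusted p = 0.0758) or 3 (-0.18, adjusted p = 0.0929), and those of the single groups on leaving out any of 7 and 6 arrays (adjusted p from 0.0509 to 0.104 and from 0.0555 to 0.107).

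The other 5 base excision genes passed in 0 of 4 comparisons each. Mpg, the glycosylase for alkylated purines such as those that methylating agents leave, had log2 values of 1.92, 1.85 and 1.72 in hCA-Tumor, 1.57, 1.64 and 1.67 in hCA-Notumor, and 1.95, 1.66 and 1.69 in DMH. It differed by 0.20 ± 0.09 between hCA-Tumor and hCA-Notumor (adjusted p = 0.104). With the slide as a block that difference was 0.53 and passed (adjusted p = 0.00952), with 0.20 for hCA-Tumor within slide 2 (adjusted p = 0.0483) and -0.33 for hCA-Notumor within slide 1 (adjusted p = 0.0613). Ung and Smug1, which remove uracil, Mutyh, which removes adenine opposite oxidised guanine, and Xrcc1, the scaffold of the ligation step, ranged from -0.13 to 0.13 over the 4 comparisons. Ung moved least, at -0.10 ± 0.07 for the mean of both groups (adjusted p = 0.326).

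Direct reversal held 2 dioxygenases that strip alkyl groups from bases. Alkbh3 had log2 values of 1.24, 1.17 and 1.34 in hCA-Tumor, 0.43, 0.48 and 0.45 in hCA-Notumor, and 0.50, 0.89 and 0.89 in DMH. The hCA-Tumor arrays were highest, and DMH replicate 1 lay near the hCA-Notumor arrays of its slide. It was 1.74-fold higher in hCA-Tumor than in hCA-Notumor (0.80 ± 0.11, adjusted p = 0.000921, and 0.37, adjusted p = 0.0184, with the slide as a block) and higher than in DMH (0.49, adjusted p = 0.0108, and 0.31 within slide 2, adjusted p = 0.0206). A dimmer Alkbh3 probe, well above background on all 9 arrays, differed by -0.02 between the high calcium groups. Alkbh2 had log2 values of -0.10, -0.09 and -0.20 in hCA-Tumor, 0.05, 0.03 and -0.01 in hCA-Notumor, and -0.02, -0.08 and -0.12 in DMH. Its difference between the high calcium groups was -0.15 (adjusted p = 0.04), or -0.04 with the slide as a block (adjusted p = 0.713), and the call ended on leaving out any of 8 arrays, all but DMH replicate 1 (-0.17 to -0.12, adjusted p from 0.0529 to 0.113). Mgmt, which removes the methyl group from guanine, had no probe named here.

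Without the slide as a block, nucleotide excision repair held higher genes and 0 lower ones against DMH. Ddb2 and Ercc2 passed the threshold in the mean of both groups, where 18.4% of all features were higher and 13% lower. On the whole-series table neither passed there (0.16, adjusted p = 0.538 for Ddb2 and 0.20, adjusted p = 0.417 for Ercc2). Ddb2, which finds lesions in chromatin, had log2 values of 0.55, 0.51 and 0.35 in hCA-Tumor, -0.17, -0.18 and -0.15 in hCA-Notumor, and -0.29, -0.07 and -0.16 in DMH. The hCA-Tumor arrays stood above all others, and hCA-Notumor lay within the DMH range. It was 1.56-fold higher in hCA-Tumor than in DMH (0.64 ± 0.08, adjusted p = 0.000799, and 0.64 within slide 2, adjusted p = 0.00952) and 1.55-fold higher than in hCA-Notumor (0.64 ± 0.08, adjusted p = 0.000516, and 0.52 with the slide as a block, adjusted p = 0.0084). hCA-Notumor differed from DMH by 0.00 ± 0.08 (adjusted p = 0.969).

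Ercc2, the helicase that opens DNA around the lesion, was highest in hCA-Notumor. Its log2 values were -3.27, -3.44 and -3.48 in hCA-Tumor, -2.99, -2.99 and -3.04 in hCA-Notumor, and -3.65, -3.47 and -3.57 in DMH. It was 1.47-fold higher in hCA-Notumor than in DMH (0.56 ± 0.07, adjusted p = 0.00108, and 0.65 within slide 1, adjusted p = 0.0155) and lower in hCA-Tumor than in hCA-Notumor (-0.39 ± 0.07, adjusted p = 0.00365), with hCA-Tumor at 0.17 against DMH (adjusted p = 0.107). The call of hCA-Notumor against DMH ended with normexp (0.31, adjusted p = 0.189), with quantile normalization (0.36, adjusted p = 0.169) and on the whole-series table (0.37, adjusted p = 0.163). That between the high calcium groups ended under the same settings (-0.19, -0.37 and -0.34, adjusted p = 0.413, 0.143 and 0.178).

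Ercc1, of the nuclease that cuts on the 5' side, was higher in hCA-Tumor than in hCA-Notumor by 0.24 ± 0.06 (adjusted p = 0.0183, and 0.45 with the slide as a block, adjusted p = 0.0116). Its log2 values were 1.75, 1.68 and 1.63 in hCA-Tumor, 1.41, 1.48 and 1.46 in hCA-Notumor, and 1.69, 1.51 and 1.50 in DMH. That call ended without hCA-Tumor replicate 1 or hCA-Notumor replicate 1 or 3 (0.21 to 0.24, adjusted p from 0.0501 to 0.0656). Against DMH, Ercc1 differed by 0.12 in hCA-Tumor (adjusted p = 0.184) and by -0.12 in hCA-Notumor (adjusted p = 0.195). With the slide as a block these differences were 0.21 (adjusted p = 0.0191) and -0.24 (adjusted p = 0.0312), and both passed. That of hCA-Notumor then rests on DMH replicate 1 alone, at 1.69 against 1.51 and 1.50 in DMH replicates 2 and 3. Xpc, the lesion sensor of the genome-wide branch, had log2 values of 0.39, 0.35 and 0.37 in hCA-Tumor, 0.60, 0.59 and 0.52 in hCA-Notumor, and 0.70, 0.44 and 0.56 in DMH. It was lower in hCA-Tumor than in hCA-Notumor by -0.20 ± 0.07 (adjusted p = 0.0457), a call that ended with the slide as a block (adjusted p = 0.995) and on leaving out any of 7 arrays, all but DMH replicates 1 and 2 (-0.22 to -0.19, adjusted p from 0.069 to 0.121). Xpa, which checks the opened lesion, and Ercc5, the nuclease of the 3' side, passed in 0 of 4 comparisons, and Xpa moved least, at 0.02 ± 0.06 for the mean of both groups (adjusted p = 0.838).

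**Figure D3:**
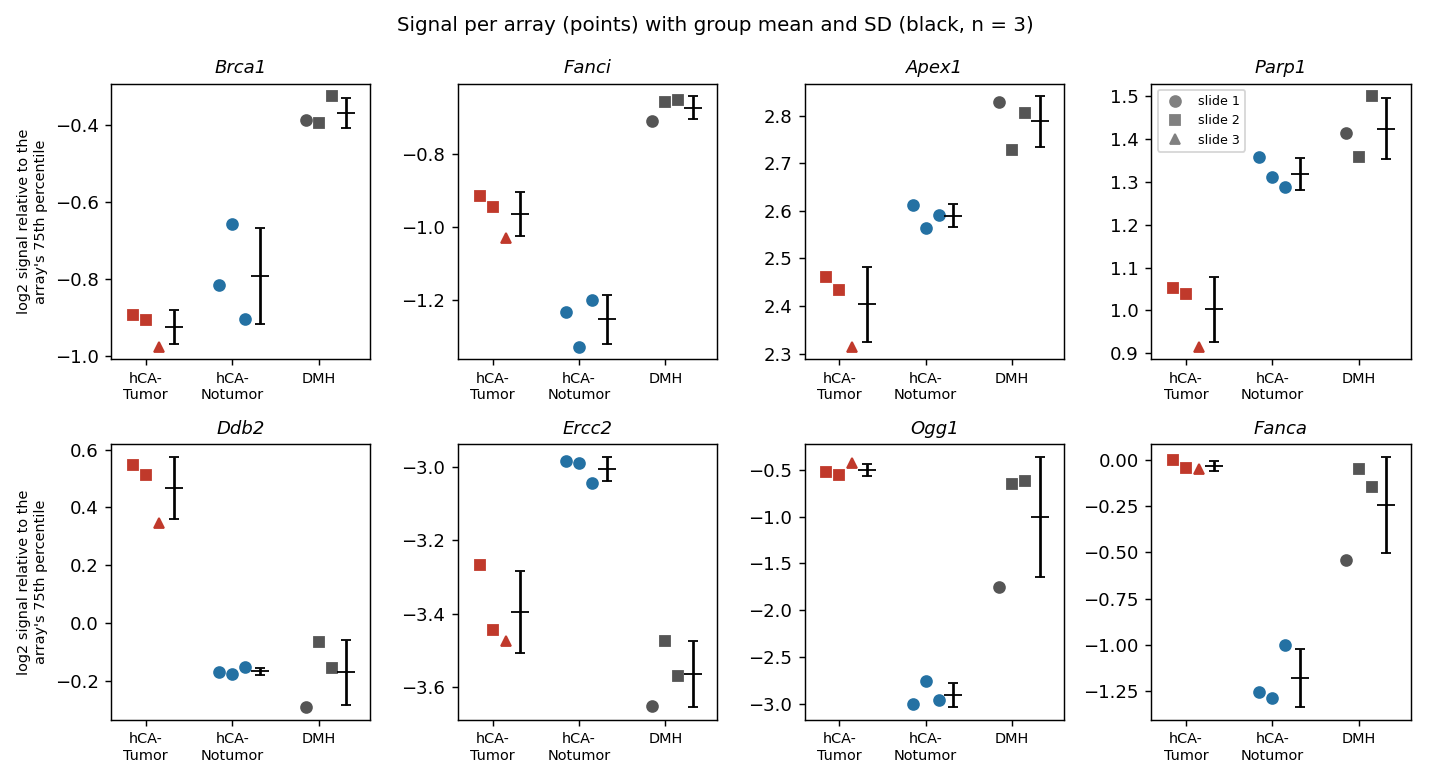
Log2 signal relative to the array's 75th percentile of 8 repair genes on every array (points, shaped by slide) with the group mean and SD in black (n = 3 per group), each panel on its own vertical axis. In Brca1, Fanci and Apex1 DMH lies above both high calcium groups, in Ddb2 hCA-Tumor lies above the others, and in Ogg1 and Fanca the DMH array of slide 1 lies toward the hCA-Notumor arrays of that slide.

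For 9 members more than 1 probe was kept, and the probes of a gene often disagreed. Between hCA-Tumor and hCA-Notumor the probe used and a dimmer one differed in sign for Nbn (0.19 and -0.37), Atm (0.31 and -1.27), Lig4 (0.07 and -1.21), Msh3 (0.07 and -0.52), Tdg (-0.02 and 1.06) and Alkbh3 (0.80 and -0.02). They had the same sign for Ogg1, for Xpc (-0.20 and -0.19) and for the 3 probes of Atr. The transcripts that each probe binds were not looked up, so the calls of Nbn and Alkbh3 in the comparison of the high calcium groups are those of the probe used. The same holds for the call of Lig4 in hCA-Notumor against DMH, where the dimmer probe was higher (0.43, adjusted p = 0.0011). In hCA-Tumor against DMH the calls of Nbn (-0.19, adjusted p = 0.0639), Tdg (0.19, adjusted p = 0.52), Alkbh3 (0.08) and Atr ended with a dimmer probe. So did the Tdg call of the mean of both groups (-0.34) and the Xpc call between the high calcium groups. The dimmer probe of Msh3 was well above background on 2 of 3 hCA-Tumor arrays.

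**Figure D4:**
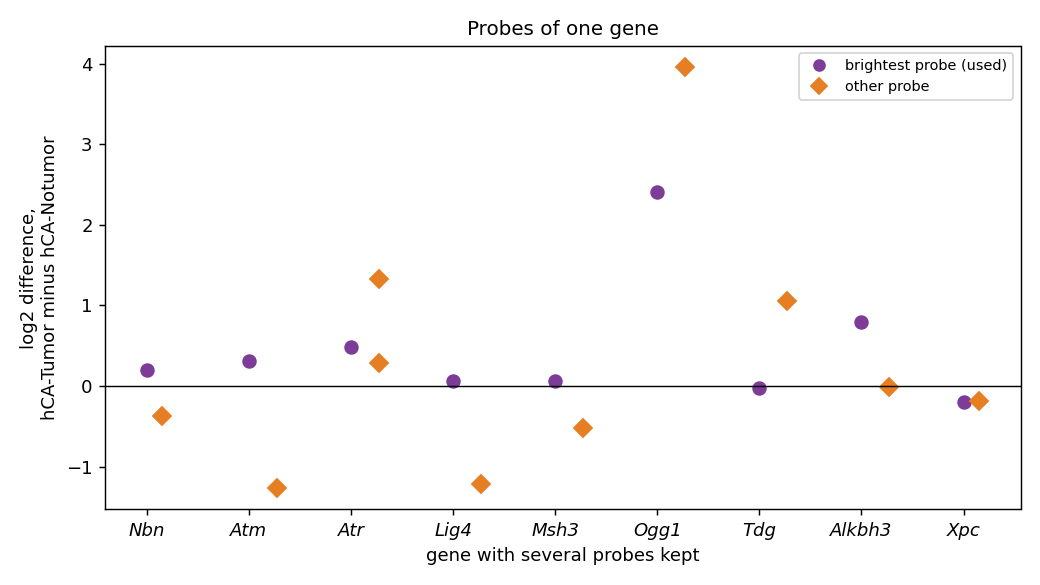
Log2 difference between hCA-Tumor and hCA-Notumor for each kept probe of the 9 repair genes with several probes, the brightest (used) as a purple circle and the others as orange diamonds. Circle and diamond lie on opposite sides of 0 in Nbn, Atm, Lig4, Msh3, Tdg and Alkbh3. The other probes of Ogg1 and Msh3 and 1 of Atr were not well above background on every array, so their positions are approximate.

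Another 100 repair genes were looked up as the rest of these pathways, of which 94 were tested. As the mean of both high calcium groups 8 were higher and 23 lower than in DMH, with a median of -0.10. The share that passed was 33%, near the 31.4% of all features (18.4% higher and 13% lower). In hCA-Tumor 11 were higher and 29 lower than in DMH, in hCA-Notumor 6 and 26, and in hCA-Tumor against hCA-Notumor 26 and 18. Those shares were 42.6, 34 and 46.8%, against 37.2, 35.6 and 47.7% of all features. Among 25 recombination genes 2 were higher and 7 lower in the mean, including H2ax, the histone that marks breaks (-0.49 ± 0.06) and Eme1, of a junction nuclease (-0.42 ± 0.04). Of 10 Fanconi genes 3 were lower, led by Faap24 (-0.37 ± 0.10), of the core complex, and Ube2t (-0.33 ± 0.04), the enzyme that brings the ubiquitin. Of 14 mismatch and replication factor genes 4 were lower, among them Mlh3, of a strand-nicking complex (-0.33 ± 0.05). Of 14 base excision genes 6 were lower and 0 higher, including Nudt1, which clears oxidised nucleotides (-0.30 ± 0.06), and Nthl1, a glycosylase (-0.22 ± 0.04).

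In end joining the genes of this list that passed were higher. Of 7 genes 3 were higher and 0 lower, namely Dclre1c, the nuclease Artemis (0.35 ± 0.05), Polm, a gap-filling polymerase (0.31 ± 0.06), and Paxx, a Ku-binding factor (0.23 ± 0.05). Nucleotide excision repair was split, with 3 higher and 3 lower of 23 (26.1%, against 31.4% of all features). Uvssa, of the transcription-coupled branch, was higher (0.38 ± 0.05), while Ddb1, the partner of Ddb2, was lower (-0.22 ± 0.06). Between hCA-Tumor and hCA-Notumor Ddb1 differed by -0.63 ± 0.07 (adjusted p = 0.000309), in the direction opposite to Ddb2. Neil3, a glycosylase active in dividing cells, had the largest difference of this list in that comparison, at 1.05 ± 0.09 (adjusted p = 0.000111).

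Proliferation genes and cell type markers changed too, and their part in the repair results was not tested. Of 30 such genes, 29 of them well above background on all 9 arrays, 1 was higher and 16 were lower in the mean of both high calcium groups (median -0.57), where 18.4% of all features were higher and 13% lower, among them Top2a (-0.89 ± 0.09) and Ube2c (-0.74 ± 0.08). Their summed linear signal ran from 109 to 116 in hCA-Tumor, from 102 to 113 in hCA-Notumor and from 132 to 138 in DMH, in units of the 75th percentile, so that both high calcium groups lay below DMH. Between hCA-Tumor and hCA-Notumor 12 were higher and 6 lower (median 0.05), where 47.7% of all features passed. The 10 smooth muscle genes were all higher in the mean of both groups (median 1.02), and the 7 tested adipocyte genes all lower (median -3.31), of which 3 were well above background on all 9 arrays. Epithelial markers had 5 of 14 higher and 1 lower, with summed signals from 1730 to 1860 in hCA-Tumor, from 1801 to 1972 in hCA-Notumor and from 1598 to 1843 in DMH. Of the other markers 5 of 7 myeloid genes (median -0.61) and 3 of 5 mast cell genes (median -1.74) were lower in the mean of both groups, and 3 of 7 neuron and glia genes were higher (median 0.59). Of T cell genes 1 of 7 was higher. Between hCA-Tumor and hCA-Notumor 5 of 8 stromal and endothelial genes were higher and 2 lower (median 0.58), and 6 of 8 B and plasma cell genes were lower (median -0.58).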

How the data were processed

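Total RNA of 9 colonic mucosa samples was labelled with Cy3 and hybridised to Agilent 1-colour arrays of design 014868. Per the file headers, the deposited intensity values are green-channel processed signals of Agilent Feature Extraction 10.5.1.1 with background already subtracted, on probes annotated to mm9. A further deposited table of all samples gives log2 values for 23726 probes, which track the log2 processed signal of the same array (r of at least 0.999995, column medians from 2.36 to 2.80). It served as an alternative.

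Signals were put on the log2 scale relative to the 75th percentile of their array (534 to 773 before log2). Control and outlier spots (outliers on 383 probes) were left out, and 0 spots were saturated. Of 41174 probes, 61.1 to 73.7% per array exceeded background clearly, the median local background being 33.5 to 50, and the number of arrays limits the precision. A probe was kept (27192 in all) if some group had it well above background on each of its 3 arrays. Probes were named by transcript accession through a RefSeq table of GRCm38.p6 (25097 with 1 symbol), and the brightest kept probe stood for a gene, giving 21084 features (14190 with a symbol).

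A linear model over all 9 arrays (limma 3.58.1, lmFit then eBayes, under R 4.3.3) gave the differences, with Benjamini-Hochberg adjustment over all features and a threshold of 0.05. Each is the group named first minus the other, with its standard error. The script was tested on simulated data. Alternatives were normexp correction (offset 50), quantile normalization, centring on the median, the whole-series table, other filters, the mean of probes, slide and replicate blocks, single slides, array weights, another variance model, only the compared groups and each array left out. Members whose arrays did not overlap in a comparison they passed are given array by array, up to 5 per pathway by largest difference, with the member whose largest difference was smallest, and up to 4 genes past the threshold per other list and comparison. The members and lists were chosen with earlier results of these data known. Replicate numbers were not taken as pairs in the main model. Same-numbered arrays of different groups had correlations of their deviations from -0.57 to 0.22. Slide enters these values as well, so they cannot decide whether the numbers pair samples.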

Additional observations from a re-analysis of the deposited data

Results flagged for a closer look

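For 18 repair genes the differences of the high calcium groups from DMH differed from each other, tested as hCA-Tumor minus hCA-Notumor at an adjusted p under 0.05 in limma, with 47.7% of all features past it. Those higher in hCA-Tumor were Ogg1 (2.41), Fanca (1.15), Alkbh3 (0.80), Ddb2 (0.64), Brca2 (0.49), Atr (0.48), Fanci (0.29), Ercc1 (0.24), Blm (0.20) and Nbn (0.19). Those lower in hCA-Tumor were Xrcc6 (-0.41), Ercc2 (-0.39), Palb2 (-0.35), Parp1 (-0.32), Rad50 (-0.27), Xpc (-0.20), Apex1 (-0.19) and Alkbh2 (-0.15). In each of them the arrays of hCA-Tumor and hCA-Notumor did not overlap. Since the groups lay on different slides, slide and group cannot be told apart in this comparison beyond what the DMH arrays of slides 1 and 2 link.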

How the results depend on the processing

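The numbers of repair genes past the threshold were 18 for hCA-Tumor minus hCA-Notumor, 14 for the mean of both high calcium groups minus DMH, 16 for hCA-Tumor minus DMH and 13 for hCA-Notumor minus DMH. In that order they were 8, 9, 10 and 8 with normexp correction (all features 29.8, 15.1, 19.7 and 18.1%). On the whole-series table they were 5, 7, 4 and 8 (all features 25.9, 11.6, 13 and 18.1%). There 63, 30.3, 39.5 and 29.3% of all calls were higher, against 58.5, 58.5, 59.4 and 51.8%. Values of the whole-series table tracked the processed signal of the same array (r of at least 0.999995). Its column medians were 2.36 for hCA-Tumor replicate 3 and 2.55 to 2.80 for the other arrays. For the mean of both groups minus DMH, the median of all members was -0.26 there in place of -0.10. That of the Fanconi genes was -0.60 in place of -0.43, and that of nucleotide excision -0.11 in place of 0.05. The part of the scaling in the changed counts was not tested. For hCA-Notumor minus DMH the count fell within slide 1, where fewer arrays enter and the single DMH array has no spread of its own. It was 20 with array weights, where 63.8% of all features passed. Leaving out 1 array gave 12 to 21, 11 to 17, 14 to 17 and 8 to 15, with 8 for hCA-Notumor minus DMH without DMH replicate 3. The shares of all features that passed then ran from 39.3 to 58.3, 20.2 to 35.6, 28.3 to 38.6 and 24.8 to 44.8%. With the replicate block the counts were 16, 13, 15 and 11 (all features 42.2, 24.8, 30.7 and 28.3%). Blocking on slide gave 12, 19, 18 and 12 (all features 31.8, 39.3, 43.8 and 27.4%). The other alternatives kept each count within 1.5 times. With DMH replicate 1 and hCA-Tumor replicate 3 both left out, a setting chosen after seeing the data, the counts were 23, 20, 18 and 19. All features passed there at 65.7, 47.1, 43.8 and 60.3%. The fit on the compared groups was not run for the mean of both groups, which uses all 3.

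Among differences that passed the threshold with or without the alternative, signs turned mostly with the choice of probe. With the mean of a gene's probes hCA-Tumor minus hCA-Notumor was -0.0856 for Nbn, -0.48 for Atm, -0.57 for Lig4, -0.23 for Msh3 and 0.52 for Tdg, Atm was -0.35 in hCA-Tumor minus DMH, and Lig4 was 0.028 in hCA-Notumor minus DMH. With the dimmer probe, an alternative chosen after seeing the data, hCA-Tumor minus hCA-Notumor was -0.37 for Nbn, -1.27 for Atm, -1.21 for Lig4, -0.52 for Msh3, 1.06 for Tdg and -0.0171 for Alkbh3. In hCA-Tumor minus DMH it was -0.19 for Nbn, -0.74 for Atm and 0.19 for Tdg, and in hCA-Notumor minus DMH 0.53 for Atm and 0.43 for Lig4. Blocking on slide put Xpc at 8e-04 in hCA-Tumor minus hCA-Notumor. Signs of differences that passed neither with nor without that block turned as well. In the same comparison Atm went from 0.31 to -0.03 and Prkdc from -0.15 to 0.04.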
